A study of Mus musculus with 2 samples.

Results

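The mouse mitochondrial genome carries 37 genes: 13 that encode proteins, 2 that encode ribosomal RNAs (rRNAs) and 22 that encode transfer RNAs (tRNAs). They were taken as every gene whose symbol begins with mt-, which gave 37 of 55536 annotated genes. The same 37 genes are all those on the mitochondrial chromosome in the GENCODE M21 annotation of mm10. Their RNA was measured in gastrocnemius, a calf muscle, from 2 male mice that were adults of 8 to 10 months. The labels number the animals 2 (replicate 1) and 4 (replicate 2) under 1 shared donor identifier, and every SD and ratio between them takes them as separate mice. Both animals were B6CASTF1/J, first-generation hybrids of C57BL/6J and CAST/EiJ from The Jackson Laboratory, and no treatment, allele or other group is named. One library was made per animal from 300 ng of total RNA with a directional kit, reduced rRNA and an ERCC spike-in mix. Each library came with a gene table, whose counts were estimated from reads aligned to transcripts, and with a second transcript table that divided the reads among transcripts by another method.

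As background, mitochondrial DNA is copied and transcribed inside the organelle and passes to offspring through the mother. Each strand is read into long precursors that span many genes, and the tRNAs between the other genes are cut out to free the mRNAs and rRNAs. The 13 proteins are core subunits of respiratory complexes I, III and IV and of ATP synthase, which also need many nuclear-encoded subunits. Skeletal muscle fibres rely on these complexes for sustained work. Over evolution, pieces of mitochondrial DNA have been inserted into nuclear chromosomes, and a young insert can hardly be told from its source in short reads.

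With 2 animals in 1 group no difference could be tested between conditions, so values are given per animal, as a mean ± SD (n = 2), or as a ratio of replicate 2 to replicate 1. TPM is a count divided by the transcript's usable length and scaled to the same total in each library, so it allows levels to be compared between genes. Because rRNA was reduced before sequencing, the levels of the mitochondrial rRNAs are those left in the libraries. The kit keeps strand, but the strand setting of the counting is not given in the sources used here. The strain label names both parents, and each table holds 1 value per gene, so the alleles of the parent strains were not separated.

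The gene tables sum to 36792619 estimated counts for replicate 1 and 37752252 for the other animal, and the libraries differed far beyond counting noise, with a chi-square of 85.4 per degree of freedom. The tissue label was checked against 8 skeletal muscle fibre markers, which summed to 90211 and 96804 TPM. The 3 liver and the 3 neuron markers summed to at most 0.26 TPM. The 9 marker lists of other cell types that muscle tissue can hold (vessel, fat, connective tissue, nerve, blood, immune and cardiac cells) summed to between 7.98 TPM (macrophage) and 251 TPM (erythroid). The 8 slow fibre markers were all lower in replicate 2, at 1644 summed TPM in replicate 1 and 1098 in replicate 2.

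The sequences that decide how well each gene can be measured are shown first. The annotation holds 7 pseudogenes on chromosome 1 of which at least 95% of all 31-base words occur in a mitochondrial gene. They lie side by side on the minus strand within 4663 bases, at chr1:24611535-24616197 in mm10. Gm28661 matches mt-Co2 over 681 of its 684 bases with 0 mismatches, Gm28437 matches mt-Co3 over 783 of 784, Gm10925 matches mt-Atp6 over 678 of 681 and Gm10222 matches mt-Nd4l over 294 of 297, again with 0 mismatches. Gm28439 matches the first 876 of the 1378 bases of mt-Nd4 without a mismatch. The end of mt-Co2 (chrM:7637-7696) and the last bases of Gm28661 (chr1:24614885-24614941, minus strand) show how little separates such a pair. The bases in capitals are the stop codon, which lies past the annotated end of the copy.
mt-Co2: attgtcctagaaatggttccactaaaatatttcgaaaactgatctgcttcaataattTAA
Gm28661: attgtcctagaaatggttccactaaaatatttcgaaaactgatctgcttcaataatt

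The remaining 2 copies differ from their source at a few bases, counted here from 1 at the first base of the mitochondrial gene. Gm29216 matches the last 492 bases of mt-Co1 with 6 mismatches, all close to its own start: T1056A, C1057T, A1059G, A1060G, C1062A and A1066T. Gm28438 matches 345 of the 348 bases of mt-Nd3 with 1 mismatch, T3C. The first 60 bases of each pair are shown with the differing bases in capitals, for mt-Co1 at chrM:6381-6440 against Gm29216 at chr1:24616138-24616197 and for mt-Nd3 at chrM:9459-9518 against Gm28438 at chr1:24613060-24613119 (both copies on the minus strand).
mt-Co1: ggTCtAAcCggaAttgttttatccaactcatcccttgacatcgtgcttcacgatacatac
Gm29216: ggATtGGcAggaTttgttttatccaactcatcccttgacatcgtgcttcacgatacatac
mt-Nd3: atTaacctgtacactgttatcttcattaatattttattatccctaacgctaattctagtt
Gm28438: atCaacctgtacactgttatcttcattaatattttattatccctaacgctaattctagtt

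The consequence for uniqueness was uneven across the genome. Of the 31-base words of mt-Co2 0% occurred in no other annotated gene, and the share was 0.133% for mt-Co3, 0.461% for mt-Atp6, 1.12% for mt-Nd4l and 1.89% for mt-Nd3. It was 36.1% for mt-Co1 and 37.2% for mt-Nd4, which are copied in part. The other 6 protein genes lay between 83.2% (mt-Nd5) and 100% (mt-Nd1), and the rRNA genes at 100% (mt-Rnr1) and 97.3% (mt-Rnr2).

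Counts that fit a gene and its copy equally well were divided between them, and the division differed greatly between the tables. In the gene table mt-Co2, the second subunit of cytochrome c oxidase (complex IV), received 2488 counts in replicate 1 and 2831 in replicate 2, while Gm28661 received 187008 and 210046. mt-Co2 thus held 1.31% of the pair's counts in replicate 1 (exact 95% binomial interval 1.26% to 1.37%) and 1.33% in replicate 2 (1.28% to 1.38%). In the second table mt-Co2 held 12.5% and 5.22% of the pair. The deposited posterior SD of mt-Co2, the gene table's own measure of how far its estimate could move, was 1430 counts in replicate 1 and 3108 in replicate 2, where it exceeded the count itself. The binomial intervals cover counting error only and take no account of the division.

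For mt-Co3, the third subunit of complex IV, the gene table gave 13056 and 25178 counts to the gene and 267154 and 256935 to Gm28437. The gene's share of the pair was 4.66% in replicate 1 (exact interval 4.58% to 4.74%) and 8.93% in replicate 2 (8.82% to 9.03%), against 42.1% and 38.8% in the second table. For mt-Atp6, the ATP synthase subunit that forms the path for protons, the share was 20.2% and 27.9% in the gene table and 89.5% and 79.0% in the second. Both tables gave most of the mt-Co1 counts to the gene, 85.3% in each animal by the gene table and 98.9% and 99.7% by the second. The copy Gm29216 covers only the last 492 of its 1545 bases. These shares are therefore not comparable with those of genes copied nearly whole.

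The 3 remaining pairs behaved otherwise. Gm28439 received 0 counts in the gene table in both animals, but 14949 and 16505 in the second, where mt-Nd4 held 87.9% and 87.1% of its pair. Gm28438 received 0 counts in the gene table and under 5 in the second, so mt-Nd3 kept nearly all of its pair. Gm10222 received 1744 and 411 counts in the gene table and 0 in the second, so mt-Nd4l held 86.3% and 96.7% of its pair in the former. The 7 copies are neighbours on chromosome 1, yet their gene-table counts in replicate 1 ran from 0 (Gm28438 and Gm28439) to 267154 (Gm28437). Whether any of these counts come from RNA of the nuclear inserts cannot be told apart in these tables.

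**Figure D1:**
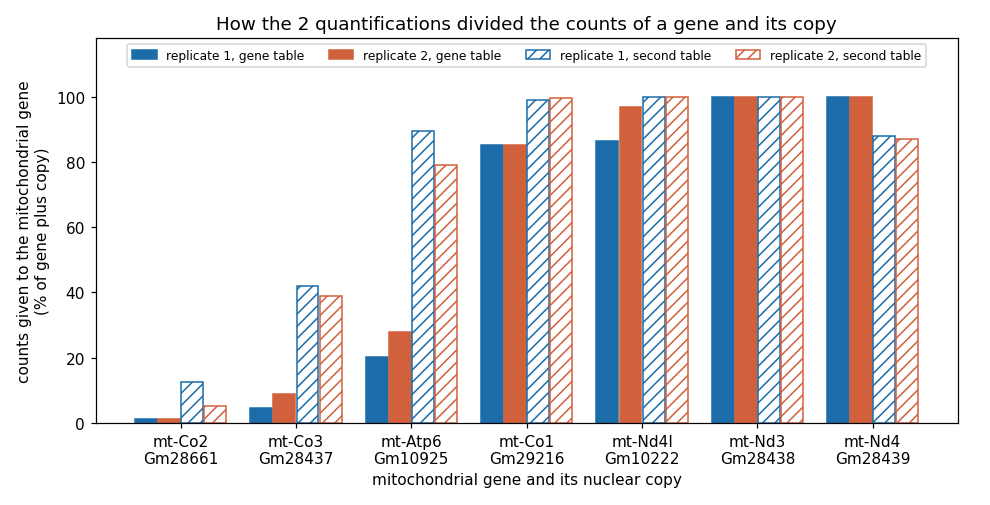
Share of a pair's estimated counts that was given to the mitochondrial gene (percent, vertical axis) for the 7 pairs of gene and nuclear copy. Filled bars are the gene table and hatched bars the second table, in blue for replicate 1 and orange for replicate 2; mt-Co2 stays at or under 12.5% in all 4 bars, while mt-Atp6 rises from 20.2% to 89.5% in replicate 1 between the tables.

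Adding the copy's counts to the gene brought the tables closer for mt-Co1, mt-Co2, mt-Co3, mt-Atp6 and mt-Nd4, left mt-Nd3 nearly where it was and moved them further apart for mt-Nd4l. For the 7 genes with a copy, the second table's count was between 0.630 times (mt-Nd4l, replicate 1) and 8.5 times (mt-Co2, replicate 1) the gene table's when the gene was taken alone. For gene and copy summed, that ratio lay between 0.543 and 1.04, and the lowest values were those of mt-Nd4l (0.543 and 0.642, against 0.630 and 0.664 alone). mt-Nd4l is the second shortest protein gene, at 297 bases. Without it the sums lay between 0.836 (mt-Atp6, replicate 1) and 1.04 (mt-Nd4, replicate 2). For comparison, 7 of the 8 rRNA and protein genes without a copy had a ratio between 0.827 (mt-Rnr1) and 1.07 (mt-Rnr2). The exception, mt-Atp8, had 4689 and 3901 counts in the gene table and 1 and 2 in the second. In the rest of the text a combined level is the TPM that follows from the summed counts of gene and copy over the length of the mitochondrial gene. It is an upper limit for the mitochondrial gene wherever the insert is itself transcribed.

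**Figure D2:**
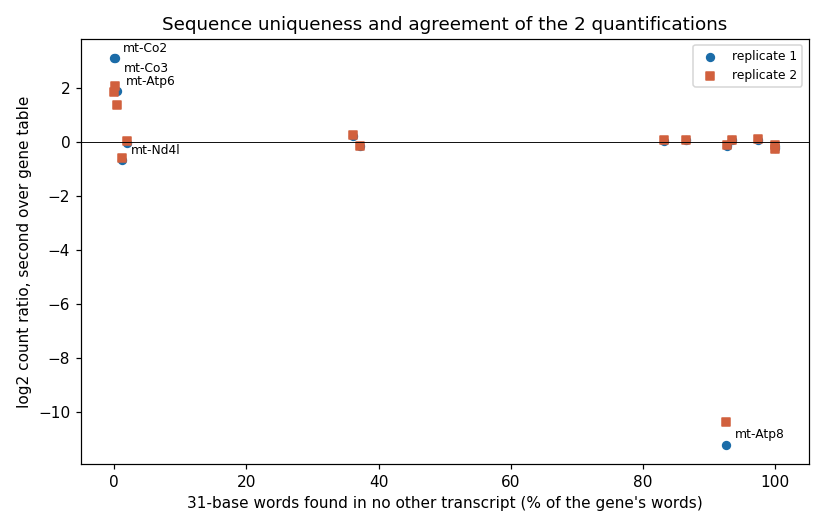
Share of each gene's 31-base words that occur in no other annotated transcript (percent, horizontal axis) against the log2 ratio of its count in the second table to that in the gene table (vertical axis), for the 15 rRNA and protein genes in replicate 1 (circles) and replicate 2 (squares). The genes with a log2 ratio beyond 0.5 in replicate 1 are named; mt-Co2, mt-Co3, mt-Atp6 and mt-Nd4l lie near 0% unique words, and mt-Atp8, at 92.5%, lies far below the others.

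Complex I, NADH dehydrogenase, takes electrons from NADH, and 7 of its subunits are mitochondrial. Adding the copies changed their gene-table levels little. In the gene table mt-Nd1 (ENSMUSG00000064341.1, chrM:2751-3707, plus strand) was the most abundant, with 5153 TPM in replicate 1 and 4793 in replicate 2. mt-Nd4 (chrM:10167-11544) followed with 3745 and 3383 TPM and mt-Nd3 (chrM:9459-9806) with 3330 and 3228 TPM. The second table gave another order: mt-Nd3 was the highest complex I gene at 5516 and 5263 TPM, above mt-Nd1 at 4164 and 3830 TPM and mt-Nd4 at 2821 and 2503 TPM. Each table kept its own order of these 3 in both animals. mt-Nd5 (chrM:11742-13565) had 2451 and 2411 TPM in the gene table, mt-Nd4l (chrM:9877-10173) 2217 and 2168 TPM, and mt-Nd2 (chrM:3914-4951) 2165 and 1805 TPM. The latter 3 lie so close that mt-Nd4l and mt-Nd2 differed by under 3% in replicate 1, and with the copy added mt-Nd4l exceeded mt-Nd5 in replicate 1 (2569 TPM) and not in replicate 2 (2241 TPM). By the second table mt-Nd4l was at 2655 and 2635 TPM and passed mt-Nd4 in replicate 2.

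mt-Nd6 (ENSMUSG00000064368.1, chrM:13552-14070), the complex I subunit on the minus strand, was the lowest of the 7 at 640 and 582 TPM. It is the single protein gene on that strand, which also holds 8 of the 22 tRNA genes, while the plus strand holds 28 of the 37 genes. Its log2 level relative to the median of the 12 other protein genes was -1.96 in replicate 1 and -2.28 in replicate 2 as deposited. With the copies added it was -2.80 and -2.81, or a mean of 6.99-fold lower. The precursor of the plus strand runs through the same region, and mt-Nd6 overlaps mt-Nd5 by 14 bases on opposite strands. Without the strand setting of the counting, RNA of both strands cannot be told apart there.

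Complex III passes electrons on to cytochrome c, and its single mitochondrial subunit is cytochrome b. mt-Cytb (ENSMUSG00000064370.1, chrM:14145-15288) had 6197 and 6330 TPM, which only mt-Co1 exceeded among the 13 protein genes in the gene table as deposited. In the second table, with 5530 and 5610 TPM, it also stood below mt-Atp6 in both animals and below mt-Co3 in replicate 1. With copies added, mt-Co1, mt-Co2, mt-Co3 and mt-Atp6 stood above it in both animals and both tables.

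Complex IV, cytochrome c oxidase, reduces oxygen to water, and its 3 mitochondrial subunits form the catalytic core. In the gene table as deposited they were the most unequal group. mt-Co1 (ENSMUSG00000064351.1, chrM:5328-6872) was at 13696 and 12843 TPM, mt-Co3 (ENSMUSG00000064358.1, chrM:8607-9390) at 758 and 1290 TPM, and mt-Co2 (ENSMUSG00000064354.1, chrM:7013-7696) at 169 and 170 TPM. There mt-Co1 was the highest and mt-Co2 the lowest of the 13 protein genes. With the copies added, mt-Co1 reached 16059 and 15053 TPM, mt-Co3 16268 and 14455 TPM and mt-Co2 12885 and 12776 TPM. The spread from the lowest to the highest value within the complex, taken over both animals, fell from 80.9-fold to 1.27-fold. mt-Co3 was then the highest of the 13 in replicate 1 and mt-Co1 in replicate 2. The second table with copies had mt-Co3 highest in both animals, at 14437 and 12719 TPM, followed by mt-Co1 at 13282 and 12426 TPM and mt-Co2 at 11460 and 11387 TPM.

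ATP synthase makes ATP from the proton gradient, and its mitochondrial subunits are read from overlapping genes. mt-Atp6 (ENSMUSG00000064357.1, chrM:7927-8607) had 2515 and 3282 TPM as deposited, and 12433 and 11769 TPM with Gm10925 added. mt-Atp8 (ENSMUSG00000064356.3, chrM:7766-7969), which has no copy, had 1790 and 1315 TPM. The genes share 43 bases and, as background, 1 mRNA, shown here around the overlap (chrM:7912-7984) with the start codon of mt-Atp6 and the stop codon of mt-Atp8 in capitals.
mt-Atp8: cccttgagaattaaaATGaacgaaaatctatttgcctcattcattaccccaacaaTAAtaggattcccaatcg

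Despite the shared mRNA, mt-Atp6 stood above mt-Atp8 by 0.49 and 1.32 on the log2 TPM scale as deposited, and by 2.80 and 3.16 with the copy added. In the second table mt-Atp8 was at 0.688 and 1.19 TPM against 9282 and 8163 TPM for mt-Atp6. mt-Atp8 is the shortest protein gene, with 204 bases, of which the gene table counted 104 as usable while 42.4 and 42.6 bases were usable in the second. The part of length in its low level was not tested. The other overlapping pair, mt-Nd4l and mt-Nd4, shares 7 bases and was closer: in the gene table mt-Nd4 stood above mt-Nd4l by 0.76 and 0.64 as deposited, and by 0.54 and 0.59 with the copies added. The second table gave a difference of 0.09 and -0.07 as deposited, with the sign turned in replicate 2, and 0.27 and 0.13 with the copies added.

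Set in genome order, the 12 protein genes of the plus strand fell into a high and a low group once the copies were added. mt-Co1, mt-Co2, mt-Atp6 and mt-Co3, which follow one another with mt-Atp8 between them, were all at 11769 TPM or above. The highest of the other 8 was mt-Cytb, and the lowest of the 4 stood 2.01-fold above it in replicate 1 and 1.86-fold in replicate 2. The second table with copies gave 1.88-fold and 1.84-fold. As deposited in the gene table, mt-Co2 was the lowest of all 12 in both animals, so this block depends on assigning the copies' counts to the mitochondrial genes. In the gene table with copies, the 12 genes ran from 1790 TPM (mt-Atp8) to 16268 TPM (mt-Co3) in replicate 1, a 9.09-fold range. The range was 11.5-fold in replicate 2. In the second table with copies, mt-Atp8 lay at 0.688 and 1.19 TPM, and the ranges were 20970-fold and 10684-fold. Leaving out mt-Atp8, they were 7.26-fold and 7.76-fold there.

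**Figure D3:**
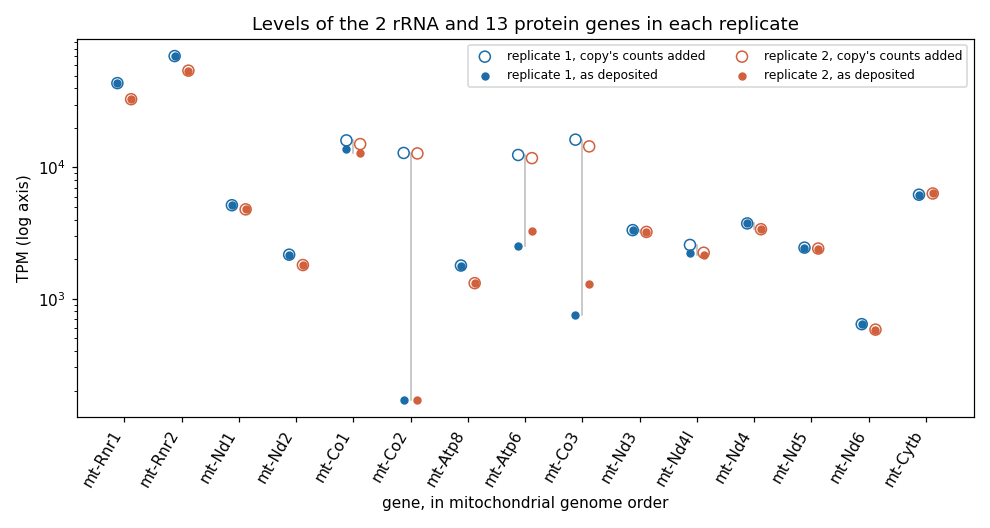
TPM (log axis) of the 2 rRNA and 13 protein genes in mitochondrial genome order, for replicate 1 (blue) and replicate 2 (orange). Filled points are values as deposited and open circles values with the nuclear copy's counts added; grey lines join them for genes with a copy, and are longest for mt-Co2, mt-Co3 and mt-Atp6, while mt-Nd6 is the lowest protein gene once copies are added.

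The make-up of the mitochondrial mRNA pool by complex changed with the copies. As deposited, the 7 complex I genes held 43.0% ± 1.29 (SD, n = 2) of the summed TPM of the 13 protein genes, the 3 complex IV genes 32.7% ± 0.130, mt-Cytb 14.2% ± 0.492 and the ATP synthase pair 10.1% ± 0.664. With the copies added, complex IV held 52.8% ± 0.00218, complex I 23.2% ± 0.276, ATP synthase 16.5% ± 0.194 and mt-Cytb 7.57% ± 0.472. The second table with copies gave 51.6% ± 0.554 for complex IV and 26.6% ± 0.328 for complex I. In the second table as deposited, complex I held 36.4% ± 0.649 and complex IV 36.5% ± 1.13, a difference smaller than the spread between the animals. The moves between deposited and combined values were larger than the spread between the animals for all 4 complexes. The direction was not the same in both tables for ATP synthase. Its share rose with the copies in the gene table but fell in the second, from 16.5% ± 0.356 to 14.1% ± 0.511.

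The nuclear-encoded partners of these subunits were far lower. The median of the 37 nuclear complex I genes was 164 and 167 TPM, with Ndufa3 (434 and 455 TPM) and Ndufc1 (452 and 431 TPM) the highest, both small accessory subunits. The 7 mitochondrial genes had medians of 2451 and 2411 TPM, a log2 ratio of 3.88 ± 0.0321, or 14.7-fold, and even mt-Nd6 stood above all 37. For complex III the log2 ratio of mt-Cytb to the median of 9 nuclear genes was 4.34 ± 0.00362, and the highest nuclear gene was Uqcrq at 489 and 510 TPM.

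For complex IV the answer turned on the copies. As deposited, mt-Co2 was lower than 11 of the 15 nuclear complex IV genes in both animals, and the median of the mitochondrial subunits exceeded the nuclear median by a log2 ratio of 1.30 ± 0.590. With the copies added, all 3 stood above all 15, and the log2 ratio was 5.24 ± 0.0594, or 37.8-fold. Cox8b, the muscle form of subunit 8, led the nuclear genes with 737 and 808 TPM, followed by Cox4i1 at 624 and 625 TPM. For ATP synthase the log2 ratio over 18 nuclear genes was 2.89 ± 0.0112 as deposited and 4.50 ± 0.141 combined. Atp5b, the catalytic beta subunit, was the highest nuclear gene of all 4 complexes at 1437 and 1509 TPM. By the gene table it exceeded mt-Atp8 in replicate 2 alone. That order depends on the table, as the second table put mt-Atp8 at 0.688 and 1.19 TPM.

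**Figure D4:**
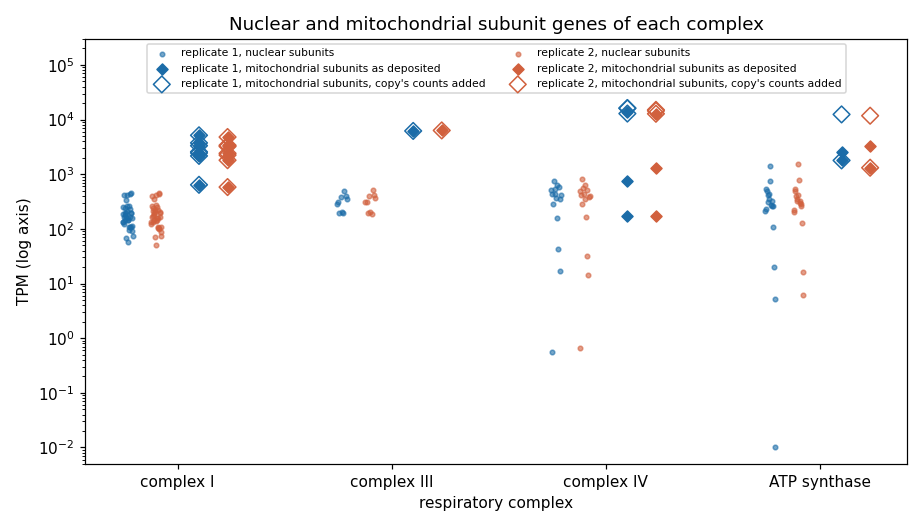
TPM (log axis) of nuclear-encoded subunit genes (small points) and mitochondrial subunit genes (diamonds; filled as deposited, open with copies added) of 4 respiratory complexes, in blue for replicate 1 and orange for replicate 2. Mitochondrial genes lie above the nuclear ones in complexes I and III; in complex IV the lowest filled diamond, mt-Co2 at 169 and 170 TPM, lies among the nuclear genes and its open counterpart at 12885 and 12776 TPM. A nuclear ATP synthase gene listed at 0 in replicate 2 is off the log axis.

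The rRNA genes were the most abundant of the 37. mt-Rnr1 (ENSMUSG00000064337.1, chrM:70-1024), the small-subunit 12S rRNA, had 943498 counts and 43820 TPM in replicate 1, and 806325 counts and 33053 TPM in replicate 2. mt-Rnr2 (ENSMUSG00000064339.1, chrM:1094-2675), the large-subunit 16S rRNA, had 2628141 counts and 70420 TPM, and 2305881 counts and 54532 TPM. Both were higher in replicate 1. The ribosome holds them in equal numbers, as background, and mt-Rnr2 exceeded mt-Rnr1 by 1.61-fold and 1.65-fold per length in the gene table and by a mean of 1.90-fold in the second. Their mean was above the median protein gene by a log2 ratio of 4.54 and 4.18 as deposited, and by 3.93 and 3.69 with the copies added to the protein genes.

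The 22 tRNA genes were all at 0 counts and 0 TPM in both animals and in both tables. They are 59 to 75 bases long, and the gene table subtracts 100 bases from each length to get the usable length, which left 0 for every tRNA gene. All 2452 annotated genes of 100 bases or fewer had a usable length of 0, and 0 of these 2452 had a count in either animal. In the second table, 0 of 2505 transcripts of up to 100 bases had a count. There the tRNA genes had usable lengths of 18.8 to 21.3 bases in replicate 1, above 0. The zeros give no limit on the amount of tRNA, and the part of the library preparation in them was not tested. The shortest and the longest tRNA gene are shown with their anticodons in capitals: mt-Ts2, a serine tRNA, at chrM:11613-11671, and mt-Tl1, a leucine tRNA, at chrM:2676-2750.
mt-Ts2: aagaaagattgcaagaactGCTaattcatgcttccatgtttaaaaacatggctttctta
mt-Tl1: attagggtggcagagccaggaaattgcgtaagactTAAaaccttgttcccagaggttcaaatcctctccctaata

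In total, the 37 genes held 15.99% of all gene TPM in replicate 1 and 13.19% in replicate 2, with 12.8% and 11.6% of all counts. The difference between the animals came with the rRNAs, at 11.5% and 8.81% of TPM, while the 13 protein genes held 4.51% and 4.38%. Adding the 7 copies raised the protein genes' share to 9.27% and 8.67% of TPM. Part of that rise comes from the length by which a count is divided: Gm29216 alone, at 492 bases, was listed at 8712 and 8148 TPM. By counts, the share rose from 3.12% and 3.32% to 4.98% and 5.17%.

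Between the animals, most protein genes differed little. The log2 ratio of replicate 2 to replicate 1 was taken on counts scaled with TMM (trimmed mean of M values) factors and 1 count added. Over the 13 protein genes it had a median of -0.02 and a median size of 0.07. The values were -0.00034 and 0.12 over all 9515 genes whose mean reached 100 counts. Counting noise is larger for the genes of that set with few counts, so the sizes are not matched for depth. Of the 15 genes with such a mean, 1 was at least 1.5-fold higher in replicate 2 (1.66% of all genes were) and 0 were 1.5-fold higher in replicate 1 (1.72% of all genes). That gene was mt-Co3, with a log2 ratio of 0.80. The posterior SDs of its counts were 3320 and 5345, against counts of 13056 and 25178. With Gm28437 added, its log2 ratio was -0.14, and in the second table -0.24.

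In the second table, 14 of the genes reached that mean, and 1 of them was 1.5-fold higher in replicate 1 (1.69% of all genes were) and 0 were in replicate 2 (1.64%). It was mt-Co2, at a log2 ratio of -1.21, which in the gene table had 0.04. With Gm28661 added, the ratio was 0.02 in the gene table and 0.06 in the second. The single gene past 1.5-fold in each table was thus a different one, and in both cases the sum of gene and copy differed by less than 1.2-fold. mt-Atp6 behaved alike, with 0.41 in the gene table, -0.12 in the second, and -0.05 and 0.06 with its copy.

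**Figure D5:**
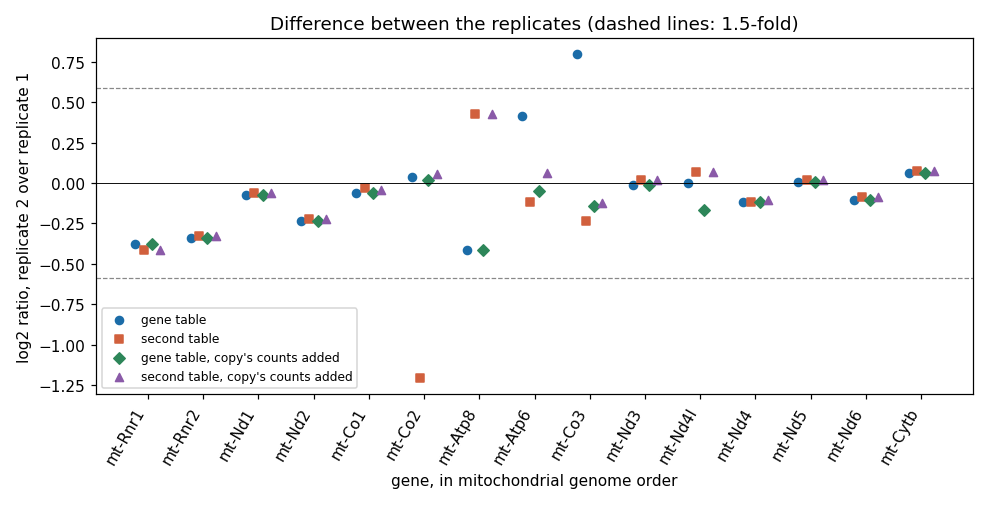
Log2 ratio of replicate 2 to replicate 1 (vertical axis) for the 15 rRNA and protein genes, from the gene table and the second table, each with and without the nuclear copy's counts; dashed lines mark 1.5-fold. mt-Co3 in the gene table (0.80) and mt-Co2 in the second table (-1.21) lie past the lines, their sums with the copies lie between -0.14 and 0.06, and both rRNA genes lie between -0.41 and -0.33 in both tables.

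At 1.2-fold, 3 of the 15 genes were higher in replicate 1, where 9.47% of all genes were, and 2 in replicate 2, where 9.27% were. The 2 were mt-Co3 and mt-Atp6. The 3 were mt-Rnr1 at -0.38, mt-Rnr2 at -0.34 and mt-Atp8 at -0.42, and the counting intervals of the rRNA ratios were narrow (-0.381 to -0.373 and -0.342 to -0.337). The second table gave -0.41 for mt-Rnr1 and -0.33 for mt-Rnr2. mt-Atp8 had the opposite sign there (0.43), on 1 and 2 counts. mt-Nd2, at -0.23 and -0.22, was the protein gene without a copy that differed most after mt-Atp8.

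Transcripts at the annotated nuclear rRNA gene CT010467.1 on chromosome 17 differed in the same direction as the mitochondrial rRNAs. Gm42418, which overlaps it, was at 16884 TPM in replicate 1 and 1274 in replicate 2, a log2 ratio of -3.70, and Gm26917, beside it, at 5071 and 4027 TPM, a log2 ratio of -0.32. Both were named after their values were seen. The 8 slow fibre markers had a median log2 ratio of -0.59. The 13 protein genes had a median of -0.02. Some marker lists of other cell types had higher medians in replicate 2. The median over all 9515 genes was -0.00034, so all genes split about evenly by direction and short lists can fall on 1 side. The 8 skeletal muscle fibre markers also went that way, in 7 of 8 (median 0.11). Of genes with 100 or more mean counts, smooth muscle was higher in replicate 2 in 3 of 3 (median 0.78) and endothelial in 6 of 6 (0.30). Adipocyte was higher in 3 of 4 (0.60), pericyte in 3 of 4 (0.29) and erythroid in 3 of 3 (0.23). Other lists did not lean that way: the median was 0.03 for fibroblast and 0.00026 for nerve. Macrophage was higher in 1 of 2, and the 1 cardiac gene was lower (-0.50). The part of rRNA removal, fibre type and these other cells in the rRNA difference was not tested. In bulk tissue, fewer cells of a type and less RNA per cell cannot be told apart.

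Nuclear genes that serve the mitochondrial genome had lower median levels than the nuclear subunits of the complexes. For the 10 transcription genes the median was 6.77 ± 0.120 TPM, and the highest were Tfam, which packages mitochondrial DNA and starts transcription, at 21.4 and 18.6 TPM, and the RNA polymerase gene Polrmt at 19.5 and 17.6 TPM. The 25 genes of RNA processing and stability had a median of 6.98 ± 0.693 TPM, with Fastk at 95.8 and 98.3 TPM and Slirp, which stabilises mitochondrial mRNAs, at 70.5 and 75.0 TPM. Over the 40 mitochondrial ribosomal protein genes the median was 25.1 ± 0.103 TPM, and the highest was Mrps21 at 127 and 124 TPM. Over all genes, 1.72% were 1.5-fold higher in replicate 1 and 1.66% in replicate 2, so few would be found in short lists. None of the genes with 100 or more mean counts in these 3 lists (8, 25 and 39) was 1.5-fold apart. The largest log2 ratios there were those of Mrm1, a methyltransferase of the 16S rRNA, at -0.45 and Mrm3, another, at -0.35.

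Among 17 mitochondrial tRNA synthetase genes, whose products load amino acids onto the tRNAs, the median was 6.12 ± 0.0849 TPM. One of the 16 with 100 or more mean counts was 1.5-fold higher in replicate 1 (1.72% of all genes were) and 0 were in replicate 2 (1.66%). It was Lars2, the leucine enzyme, at 2239 and 28.3 TPM, a log2 ratio of -6.27. In replicate 1 this was above every nuclear subunit gene of the complexes. Gm42418, at the nuclear rRNA gene, differed in the same direction (-3.70), as did CT010467.1 (-2.23), and whether the Lars2 counts come from its mRNA was not tested. The complex II genes, whose 4 subunits are all nuclear-encoded, had a median of 227 ± 3.08 TPM and log2 ratios between the animals with a median of 0.02, led by Sdhc at 315 and 303 TPM.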

How the data were processed

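Expected counts (estimated, not whole) and TPM per gene were deposited by the authors in gene tables whose column names are those of RSEM, with posterior SDs of the counts, per the file headers. A second deposited table, with the column names of kallisto, gave estimated counts and TPM per transcript and was summed per gene. The deposited isoform percent columns were not used. Reads were assigned to mm10 and GENCODE M21, per the deposited notes; aligner, versions and strand setting are not given in the sources used here. Symbols came from the transcript identifiers of the second table, or from the GENCODE M21 annotation where these gave none. Positions came from that annotation, and sequences from the mm10 transcripts of that release.

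Counts were rounded and scaled with edgeR 4.0.16 (TMM) in R 4.3.3. Ratios used 1 added count and a mean of 100 or more counts. A copy is a nuclear gene with 95% or more of its 31-base words in a member. Intervals are Clopper-Pearson at 95%, from scipy 1.17.1. With 1 group of 2 animals no test was run. The named genes were all 37 members, for each gene list the 2 highest by TPM and the 2 with the largest ratio, and the 8 non-members with the most counts that share words. The ratio and summing steps were checked on simulated data. Alternatives were DESeq2 1.42.0 size factors, total and spike-in scaling, nuclear-only TMM, the second table, other priors, filters and folds, and leaving out each replicate. The genes, lists and rules were chosen with earlier results of these data known.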

Additional observations from a re-analysis of the deposited data

How the results depend on the processing

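With 2 animals in 1 group no difference was tested. In the gene table depth limits the 15 counted genes little, and the division of counts between gene and copy limits 7 of them. mt-Atp8, which has no copy, is limited by the choice of table. It had 4689 and 3901 counts in the gene table and 1 and 2 in the second. No paired analysis was possible because there is 1 group. The tRNA genes have no count, so their median ratio has no value under any alternative, and 0 of 22 reached 1, 10 or 100 counts in either table.

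The median log2 ratio of the 13 protein genes (-0.02) was 0.10 with total counts, -0.16 with spike-in counts, -0.074 in the second table and -0.075 with the copies added. The sign of this median thus depends on the scaling. Total counts moved the median of all 9515 genes by 0.11 and spike-in counts by -0.15. A scaling shifts every gene alike. The distance of the protein genes from that median (-0.01) therefore cannot change with the scaling and is no check of it. The rRNA median (-0.36) was -0.35 with DESeq2 size factors, -0.24 with total counts, -0.51 with spike-in counts and -0.37 in the second table, below 0 under each. The count of genes 1.5-fold apart was 1 under every scaling, prior and filter tried, 5 at 1.2-fold, 0 at 2-fold and 0 with the copies added.

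The 37 genes' share of TPM (14.6%) was 19.1% with the copies added, 21.3% without the signal recognition particle RNA genes and 9.24% for the 13 protein genes over protein-coding genes alone. Without either replicate it was 13.19% to 15.99%. Their share of counts (12.2%) was 14.1% with the copies and 11.6% to 12.8% without either replicate. The mt-Rnr2 to mt-Rnr1 ratio (1.63) was 1.90 in the second table. The median TPM of the 13 protein genes (2431) was 2728 in the second table and 3564 with the copies added. The log2 ratio of mitochondrial to nuclear subunits over all 4 complexes (3.42) was 3.55 in the second table and 3.97 with the copies added. That of mt-Nd6 to the other protein genes (-2.12) was -2.41 and -2.80 likewise. Without either replicate these 4 ran over 1.61 to 1.65, 2411 to 2451, 3.42 to 3.43 and -2.28 to -1.96. Adding the copies to single genes was chosen after seeing the data.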

Other observations

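Apart from the copies on chromosome 1, nuclear genes that share words with a mitochondrial gene took few counts. Of 23 nuclear genes that share any 31-base word with a mitochondrial gene, the 3 with most counts after the copies on chromosome 1 were Cep295, Gm13340 and Gm13341. Gm13340 on chromosome 2, with 45.2% of its words in mt-Co1, had 41.0 and 64.4 counts in the gene table and 189 and 224 in the second. Its neighbour Gm13341, with 48.0% of its words in mt-Co2, had 44.0 and 51.0 counts and 5.11 and 9.21. Cep295, a protein-coding gene of the centrosome, shares 4 words with mt-Ty and had 315 and 402 counts. Gm20594, which shares 42 words with mt-Rnr2, had 0 counts in the gene table and 36 and 15 in the second. It was named after its values were seen.

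The coding ends of 3 genes are incomplete in the genome itself. mt-Co3, mt-Nd4 and mt-Cytb end 1 base past their last whole codon, in a lone T, and as background the stop codon is completed when the poly(A) tail is added. The end of mt-Cytb (chrM:15258-15288) is shown with that base in capitals.
mt-Cytb: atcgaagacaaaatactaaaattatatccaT
These 3 genes had combined levels from 3383 TPM (mt-Nd4, replicate 2) to 16268 TPM (mt-Co3, replicate 1), a range that also held genes with whole stop codons such as mt-Co1 and mt-Co2.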
